A study of Mus musculus with 20 samples.

Results

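The promoters described here belong to the mouse genes whose symbol begins with Zfp followed by a number, most of them zinc finger genes. They were chosen by symbol on chromosomes 1 to 19, a rule that uses no measured value, though earlier results of these data were known. The members number 328 of the 22480 promoters in the deposited table. A further 7 such promoters on the X chromosome were left out. Of the 328 members, 304 have a symbol of Zfp and digits only. The others carry a suffix, such as Zfp652os or the pseudogene Zfp133-ps. Each promoter was probed as a 2.2 kb region reaching 200 bp past the gene start. Sperm DNA of F1 males was measured by MBD-sequencing in 20 libraries, 5 from control males and 5 from DEHP males in each of the inbred strains C57BL/6J and FVB/N, which makes 4 groups. Mothers of the DEHP groups received the plasticizer orally at 300 mg/kg/day in corn oil on days 9 to 19 of pregnancy, mothers of the controls received corn oil alone, and sons were sampled at 8 weeks. The labels do not say which sons shared a litter. The reads are of DNA, so the labelled cell type could not be checked against expressed markers. The comparisons ask how the promoter methylation of sperm differs between exposed and control males of each strain, and between the strains.

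A zinc finger protein binds DNA through repeated finger domains, and different finger arrays read different sequences. Many members of the family carry a KRAB domain, which recruits the corepressor TRIM28 and with it histone methylation and heterochromatin, and KRAB members are known for silencing retrotransposons and for keeping imprinted regions methylated in the embryo. Their genes lie largely in tandem clusters that arose by duplication. In MBD-sequencing, DNA is sheared and a protein domain that holds on to methylated CpG pulls the methylated pieces out, so the reads over a promoter depend on its methylation, on how many CG sites it holds and on where they lie.

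The stretches below show how different the sequence just before the start is among members the results turn on. Zfp637 and Zfp872 differed between the strains, Zfp493 and Zfp707 differed between DEHP and control, Zfp957 had the highest level of the family, and Zfp318 was among the members with the lowest. Each stretch is the nearest 250 bases before the gene start that overlap no annotated exon, read 5′ to 3′ on the strand of the gene from GRCm38.p6, the assembly of mm10, with CG sites in capitals. They lie at chr6:117840930-117841179 (plus strand) for Zfp637, chr9:22187840-22188089 (plus) for Zfp872, chr13:67779443-67779692 (plus) for Zfp493, chr15:75968873-75969122 (plus) for Zfp707, chr14:79247370-79247619 (minus) for Zfp957 and chr17:46383481-46383730 (plus) for Zfp318.
Zfp637: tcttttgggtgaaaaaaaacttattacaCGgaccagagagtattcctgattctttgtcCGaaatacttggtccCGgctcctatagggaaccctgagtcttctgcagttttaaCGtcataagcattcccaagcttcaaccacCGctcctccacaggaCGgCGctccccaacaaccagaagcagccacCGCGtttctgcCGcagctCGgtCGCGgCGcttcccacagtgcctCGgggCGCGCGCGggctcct
Zfp872: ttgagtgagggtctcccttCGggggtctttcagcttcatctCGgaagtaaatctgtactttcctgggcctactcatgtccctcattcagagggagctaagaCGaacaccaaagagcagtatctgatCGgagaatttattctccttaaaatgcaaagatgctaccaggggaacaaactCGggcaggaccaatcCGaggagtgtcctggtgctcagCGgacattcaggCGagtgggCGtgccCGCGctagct
Zfp493: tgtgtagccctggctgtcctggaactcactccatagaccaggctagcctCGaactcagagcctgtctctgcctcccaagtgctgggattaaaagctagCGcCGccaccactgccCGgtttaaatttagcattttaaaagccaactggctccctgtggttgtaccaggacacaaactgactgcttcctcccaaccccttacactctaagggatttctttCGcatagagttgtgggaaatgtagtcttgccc
Zfp707: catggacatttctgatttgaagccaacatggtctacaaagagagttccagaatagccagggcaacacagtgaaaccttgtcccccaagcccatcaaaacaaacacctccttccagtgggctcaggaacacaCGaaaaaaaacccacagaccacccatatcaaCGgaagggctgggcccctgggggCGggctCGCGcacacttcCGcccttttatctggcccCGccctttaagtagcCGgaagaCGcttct
Zfp957: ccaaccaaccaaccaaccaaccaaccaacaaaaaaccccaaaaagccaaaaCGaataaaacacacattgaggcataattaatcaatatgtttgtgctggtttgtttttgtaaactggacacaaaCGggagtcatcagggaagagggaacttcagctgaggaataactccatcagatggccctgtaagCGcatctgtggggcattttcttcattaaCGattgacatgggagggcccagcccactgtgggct
Zfp318: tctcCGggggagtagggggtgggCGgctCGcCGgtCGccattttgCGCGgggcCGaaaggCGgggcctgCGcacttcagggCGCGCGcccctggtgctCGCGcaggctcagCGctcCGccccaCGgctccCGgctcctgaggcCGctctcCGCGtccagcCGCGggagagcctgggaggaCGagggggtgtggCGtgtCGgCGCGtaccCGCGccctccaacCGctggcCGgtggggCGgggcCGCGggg
The stretch of Zfp318 held 36 CG sites and that of Zfp957 held 4. Zfp637, Zfp872, Zfp707 and Zfp493 lay between, with 19, 11, 9 and 5 CG sites.

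The median Zfp promoter carried fewer reads than the median of all promoters, at a similar number of CG sites. The median Zfp promoter held 47 CG sites, against 45 over all promoters, yet the median level of the family was below that of all promoters in each of the 4 groups. Values are the authors' means of normalized reads over 5 libraries, and a value after ± is the authors' SD. In C57BL/6J the median was 3.1 for Zfp promoters and 5.0 for all promoters without DEHP, and 4.0 and 5.3 with it. In FVB/N the medians were 2.0 and 3.0 without DEHP, and 3.6 and 4.9 with it. The median Zfp promoter stood between the 36.4th and the 38.5th percentile of all promoters in the 4 groups. Averaged over the 4 groups, 27 Zfp promoters (8.23%) reached 10 normalized reads, against 23.9% of all promoters, and 94 (28.7%) stayed under 2, against 21.4%.

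Members ranged widely in CG sites, from 3 at Zfp616, 6 at Zfp72 and 8 at Zfp534 to 168 at Zfp362, 176 at Zfp664 and 178 at Zfp652os. An exon of the member's own gene overlapped the probe in 317 of them. The CG sites of the family lay close to the start, with a median of 68.9% of them in the 700 bases around it, against 59.3% over all promoters.

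The gap in level was widest among promoters with 20 to 49 CG sites. The 160 Zfp promoters of this class had a median of 3.12 normalized reads (mean of the 4 groups), against 8.59 for all 7606 promoters of the class. With 50 to 99 CG sites the medians were 3.40 (n = 125) and 3.98, with 100 or more they were 1.58 (n = 23) and 2.17, and with under 20 the 20 Zfp promoters had the higher median, 4.20 against 3.75. These are descriptions of group means, and no test was made of the family against other promoters.

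**Figure D1:**
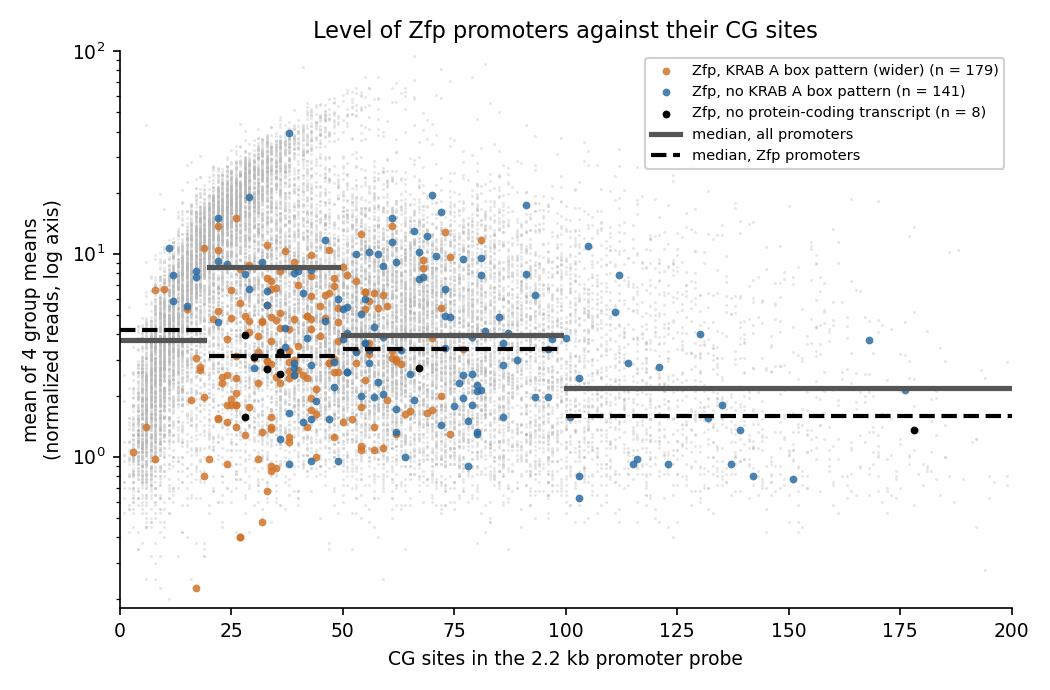
Mean of the 4 group means (normalized reads, log axis) against the number of CG sites in the probe, with each point 1 promoter, grey for other promoters and coloured for Zfp promoters by presence of a KRAB A box, drawn up to 200 CG sites and 100 reads. Lines give the medians in 4 classes of CG sites, where Zfp promoters with 20 to 49 CG sites lie at 3.12 and all promoters of that class at 8.59.

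The gap differed with the position of the CG sites and was present with and without repeated sequence. In the class of 20 to 49 CG sites, 104 Zfp promoters (65%) held at least 20 of them in the 700 bases around the gene start (500 bases before it and 200 after), whereas 38.2% of all promoters of the class did. Where the core held 20 to 29 CG sites, the medians were 3.15 (n = 72) for Zfp and 4.62 for all, and where it held 30 or more they were 2.52 (n = 32) and 3.14. The gap stayed wide where the core held 10 to 19, with 3.92 (n = 51) for Zfp and 13.2 for all. There the core held a median of 17 CG sites for Zfp and 14 for all, so the sets were not matched. Where the core held 0 to 9, the medians were 10.4 (n = 5) and 14.5. Only read-pairs with a single position were kept by the authors, and Zfp genes resemble each other. In 48 Zfp promoters (14.6%), under 90% of sampled 51-base words occurred once in the genome, against 10.4% of all promoters. With 20 to 49 CG sites and 10 to 19 of them in the core, these shares were 29.4% and 10.3%. Among promoters with 20 to 49 CG sites in which every sampled word was unique, the medians were 4.21 (n = 50) for Zfp and 10.8 for all, and with under 90% unique words they were 1.86 (n = 26) and 5.52. The part of CG position in the low levels was not tested.

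Members in which a KRAB domain was found and the others differed in CG sites more than in level. A KRAB A box was found in the longest translated reading frames of 102 members by a strict pattern, and of 179 by a wider one set after the first search. Since the strict pattern missed members that the wider one found, the wider one may also miss some. By the wider pattern, the 179 KRAB members held a median of 38 CG sites and 12 fingers, and the 141 others 62 CG sites and 4 fingers, with 8 members lacking a protein-coding transcript. No KRAB member had 100 or more CG sites, while 22 of the others did. The median levels were 3.05 normalized reads with KRAB and 3.62 without. In the class of 20 to 49 CG sites they were 3.02 (n = 117) and 4.33 (n = 37).

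The 5 highest members had no KRAB domain by either pattern, and 1 of them, Zfp668, lay in a cluster. Zfp957, on chromosome 14 with 38 CG sites, had 63.9 ± 13.1 normalized reads in the controls of C57BL/6J and 25.6 ± 9.1 in its DEHP males. The FVB/N values were 38.7 ± 19.2 without and 28.7 ± 6.4 with DEHP. It stood at or above the 98.6th percentile of all promoters in every group. Zfp422, Zfp652, Zfp326 and Zfp668 followed, with means of the 4 groups of 19.6, 19.1, 17.4 and 16.1 normalized reads. Zfp652 codes for a repressor that works with CBFA2T corepressors, and ZFP326 belongs to a complex that links messenger RNA particles with RNA polymerase II.

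Some of the lowest members lie in sequence that is not unique. Zfp931 had 0.9 ± 1.2 normalized reads in C57BL/6J DEHP and was listed at 0 in the other 3 groups, but only 16.7% of its sampled words were unique. Zfp934 and Zfp935 share 1 probe, with 35.2% unique words, and lay between 0 and 1.2 normalized reads in the 4 groups. Zfp949 and Zfp318 were low with nearly all words unique. Zfp318, which codes for a testis-expressed zinc finger protein also needed for IgD splicing in B cells, holds 103 CG sites, and its means lay between 0.5 and 0.8 normalized reads in the 4 groups. Zfp646 and Zfp526, with 151 and 103 CG sites, were nearly as low, at 0.775 and 0.80 normalized reads averaged over the groups.

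Relative to their number of CG sites, Zfp957, Zfp541 and Zfp534 carried the most reads. They had 1.03, 0.966 and 0.828 normalized reads per CG site, against a median of 0.0743 over the members. Zfp541 codes for a germ cell protein that acts with histone deacetylases in meiosis. Its probe holds 11 CG sites and had 17.6 ± 7.2 normalized reads in C57BL/6J controls and between 7.7 and 9.4 in the other groups. Zfp534 has only 8 CG sites and 16.7% unique words.

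Many Zfp promoters lay in clusters, and chromosomes 7, 17 and 13 held the most members, 80, 40 and 35. Chaining gene starts that lie within 500 kb of each other gave 16 clusters of at least 5 members with 150 members in all, 64 members in groups of 2 to 4, and 114 with no other member in reach. KRAB members (wider pattern) made up 113 (75.3%) of the clustered and 25 (21.9%) of the single members. The medians of the 4-group means were 3.02 for clustered and 3.62 for single members, and 17 of the 27 members with at least 10 normalized reads were single ones.

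The clusters differed in level, and so did the members of the larger ones. The largest, on chromosome 13 of mm10 with gene starts from 67061170 to 67813816, holds 22 members, 20 of them with KRAB, with a median of 31 CG sites. Its median level was 3.10 normalized reads, from 1.48 at Zfp429 to 15 at Zfp458. The cluster of 20 on chromosome 17, from 21008941 to 23599487, had a median of 2.52, with 9 members under 2, from 0.80 at Zfp945 to 9.30 at Zfp942. The lowest median, 1.62, was that of the 11 members on chromosome 17 from 32788287 to 33629092, from 0.675 at Zfp81 to 7.30 at Zfp871. The highest, 6.25, was that of the 5 members on chromosome 9 from 22071345 to 22307638, with Zfp653 at 6.70 and Zfp810 at 1.62. The median of this cluster was high in C57BL/6J only, at 7.2 in controls and 5.6 in DEHP. In FVB/N its medians were 1.8 in controls and 2.2 in DEHP. The 5 members did not share this pattern. FVB/N controls and FVB/N DEHP had 5.6 and 5.4 normalized reads at Zfp809, and 4.6 and 7.0 at Zfp653. Zfp872 had 1.8 in each of these groups, while its C57BL/6J values were 10.9 without and 10.5 with DEHP. Zfp599 and Zfp810 were low in all 4 groups, with 3.8 at most (Zfp599, C57BL/6J DEHP). On chromosome 7, the 13 members from 24081897 to 25221451 had a median of 5.85, from 0.80 at Zfp526 to 9.88 at Zfp108, and the 15 members from 29768552 to 30169727 had 2.67, from 1.07 at Zfp27 to 11 at Zfp940. Of the 16 clusters, 5 had a median above the 4.65 normalized reads of the median promoter of the table.

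**Figure D2:**
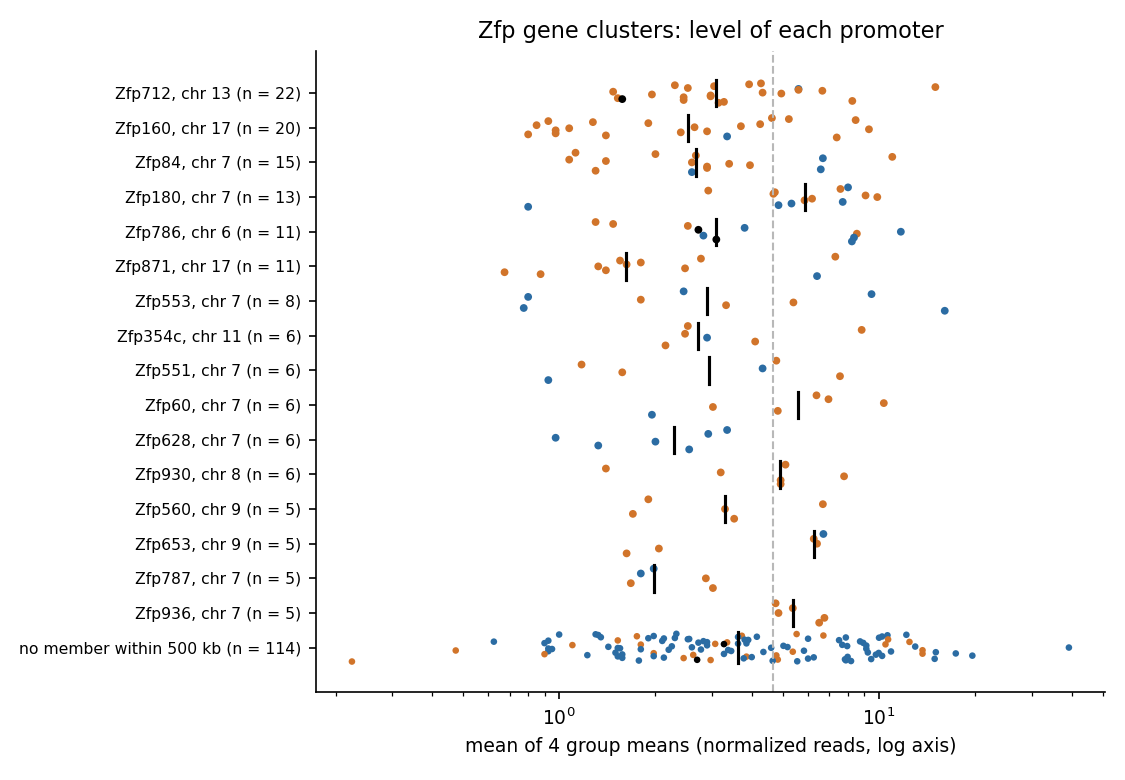
Mean of the 4 group means (normalized reads, log axis) of each member, with 1 line per cluster of at least 5 members, named by its first gene, and the 114 members without a neighbour at the bottom. Points are promoters (orange with a KRAB A box by the wider pattern, blue without, black without a protein-coding transcript), bars are medians and the dashed line is the median of all promoters, 4.65, and in the cluster of 22 on chromosome 13 the points run from 1.48 to 15.

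Neighbouring starts did not have to share a level. The probes of 20 members overlapped in 10 pairs, 5 of which are the same probe listed for 2 genes (Zfp934 with Zfp935, Zfp595 with Zfp953, Zfp58 with Zfp87, Zfp566 with Zfp82 and Zfp866 with Zfp963), and these share all reads. Zfp646 and Zfp668, whose starts lie 27 bp apart on opposite strands, overlap by 372 bp. They had 0.775 and 16.1 normalized reads averaged over the groups, with 151 and 72 CG sites. Each of these probes holds an exon of the other gene. Zfp943 and Zfp942 start 95 bp apart on opposite strands and had 1.07 and 9.30. An exon of another gene lay in the probe of 117 members, whose median was 2.98, against 3.27 for the other 211.

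Members with known roles differed widely in level, and Zfp318 was among the 5 lowest members of the family. Of 20 such genes listed, 17 were among the members, with means of the 4 groups from 0.625 to 10.7 normalized reads and a median of 3.40, and 5 lay above the median of all promoters. Zfp57 and Zfp445, which keep imprinted regions methylated in the early embryo, were among these. Zfp57, with 19 CG sites, had 15.2 ± 4.2 and 6.7 ± 4.8 normalized reads in C57BL/6J and FVB/N controls, and 11.7 ± 2.4 and 9.1 ± 4.1 in DEHP. Zfp445 lay between 7.0 and 9.5 in the 4 groups.

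The repressors of retroviral elements ranged widely. Zfp809, which silences murine leukemia virus type sequences, lay between 5.4 and 7.4 normalized reads. Zfp932, which acts on another class of endogenous retroviruses, lay between 0.4 and 1.5, with 63.9% of its sampled words unique. Zfp708 lay between 1.8 and 5.3, and Zfp568, which represses a placental transcript of Igf2, between 1.8 and 4.8. The transcription factor gene Zfp281, active in pluripotent cells, was at 9.45 averaged over the groups, and Zfp143, whose protein binds promoters and chromatin loop anchors, at 1.58. Zfp36 codes for tristetraprolin, which binds RNA rather than DNA, and was at 1.95. Zfp42 (Rex1), a marker of embryonic stem cells, lay between 1.8 and 3.6, and Zfp105, a gene expressed in testis, between 2.0 and 6.2. In the comparisons described next, 0 of the 17 were called, where calls over all promoters run from 0.0267% to 1.42% per comparison and direction, so a count of 0 says nothing particular about them.

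Because only group means and SDs were used, a difference was called where the deposited values leave no overlap between the groups. No library of a group of 5 can lie more than 1.79 SD from its mean, so groups whose means plus and minus 1.79 authors' SD (widened for rounding) do not overlap are fully separated. Counts of such calls are lower limits and come without a p-value. Ratios are log2 of group means with a pseudocount of 1, and understate the change of low promoters. SDs were large in FVB/N controls, where the authors' SD had a median of 0.719 of the mean over the 169 Zfp promoters with a mean of at least 2, against 0.394 to 0.476 in the other groups. Over all promoters with a mean of at least 2 it was likewise 0.654 in FVB/N controls, against 0.361 to 0.418 in the other groups.

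Between the strains, 4 members were called, all higher in C57BL/6J and all with many variants in the probe. In controls, Zfp637 and Zfp872 were higher in every C57BL/6J library than in every FVB/N library, 0.61% of the members beside 1.06% of all promoters. In DEHP, 4 members were, Zfp964, Zfp872, Zfp637 and Zfp748 (1.22%), beside 0.307% of all promoters. No member was higher in every FVB/N library, where the share of all promoters was 0.0267% in controls and 0.0311% in DEHP.

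Zfp637, on chromosome 6 with 85 CG sites, had 11.8 ± 2.2 normalized reads in C57BL/6J controls and 1.2 ± 1.6 in FVB/N controls, a log2 ratio of 2.54. In DEHP it had 5.6 ± 0.7 and 0.9 ± 0.7, a log2 ratio of 1.80. C57BL/6J libraries were thus high and FVB/N libraries low in both treatments. The probe holds 64 variants between the strains, and 91.7% of its sampled words were unique.

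Zfp872, a KRAB member on chromosome 9, had 10.9 ± 3.0 normalized reads in C57BL/6J and 1.8 ± 1.0 in FVB/N controls, a log2 ratio of 2.09. In DEHP the values were 10.5 ± 2.3 and 1.8 ± 0.5, a log2 ratio of 2.04. Its level was nearly the same in control and DEHP of each strain. With equal sums and with equal medians over all promoters the call in controls was lost, at log2 ratios of 1.53 and 1.55, and the call in DEHP was not. Its probe holds 23 variants.

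Zfp964, in the KRAB cluster of chromosome 8, had 7.5 ± 1.4 normalized reads in C57BL/6J DEHP and 0.2 ± 0.4 in FVB/N DEHP, a log2 ratio of 2.82. In controls it had 4.6 ± 2.7 and 0.5 ± 0.6, and the ranges in which the libraries can lie overlapped. Zfp748, in the large cluster of chromosome 13, had 4.3 ± 0.6 and 1.3 ± 0.8 in DEHP, a log2 ratio of 1.20, and 3.3 ± 3.1 and 0.9 ± 0.5 in controls. Its call was lost with equal medians, where the log2 ratio was 1.09. The probes of Zfp964 and Zfp748 hold 12 and 16 variants.

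All 4 members called between the strains had at least 10 variants in the probe, 4 of 59 such members (6.78%) and 0 of the other 269. Over all promoters, 5.66% of those with at least 10 variants were called between strains, against 0.396% of those with none. The median log2 ratio of C57BL/6J over FVB/N followed the same order, on the scale as deposited, where the median of all promoters in controls is 0.54 (0.00 with equal sums). It was 0.85 in controls and 0.40 in DEHP for the 59 members, against 0.41 and 0.06 for the 159 members without variants, and 0.80 and 0.31 against 0.49 and 0.00 over all promoters of these classes. Reads were aligned onto mm10, the genome of C57BL/6J, so reads of FVB/N carry the mismatches, and the part of alignment in the difference was not tested. In the cluster of 22 on chromosome 13, with a median of 15.5 variants per probe, the median log2 ratio was 0.73 in controls and 0.33 in DEHP (as deposited). In the cluster of 20 on chromosome 17, with a median of 0, it was 0.30 and 0.05. Other clusters did not all keep this order. The 5 members on chromosome 9 from 22071345, with a median of 12 variants, had 0.85 and 0.58. The 6 on chromosome 8 from 69209046, with a median of 10.5, had 0.50 and 0.07. On chromosome 7, the 5 from 6155971, with a median of 6, had 0.85 and 0.57. The 13 from 24081897 on that chromosome, with a median of 0, had 0.54 and 0.12.

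**Figure D3:**
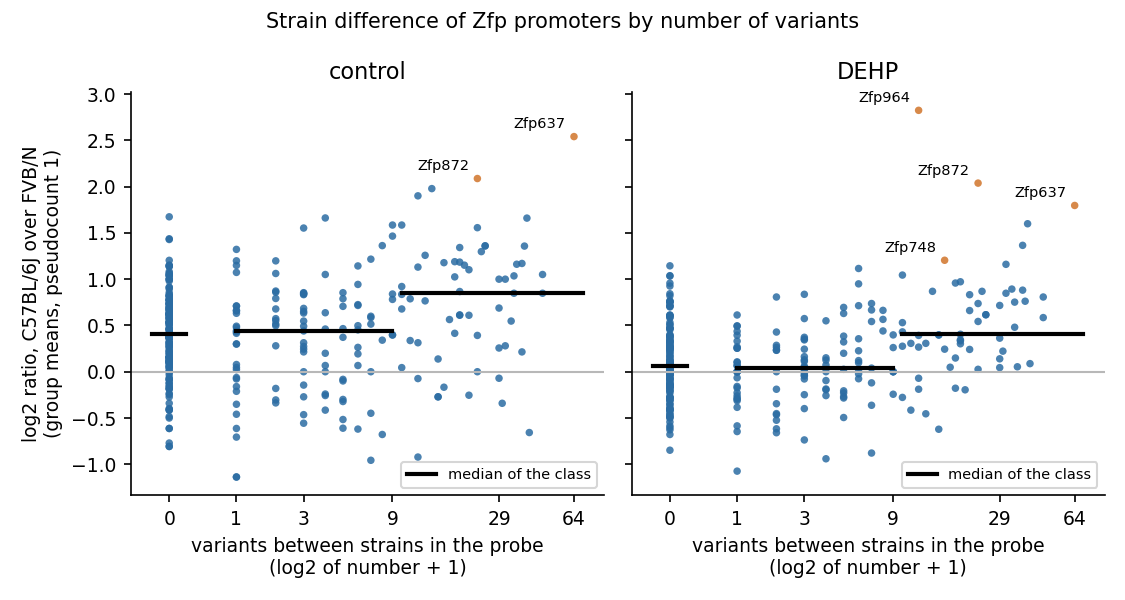
Log2 ratio of C57BL/6J over FVB/N (group means, pseudocount 1) of the 328 Zfp promoters against the number of variants in the probe (axis on the log2 of the number + 1), in controls on the left and DEHP on the right. Orange points are the called members and bars are medians of members with 0, 1 to 9 and 10 or more variants, which in controls lie at 0.41, 0.44 and 0.85 as deposited, a scale on which the median of all promoters is 0.54 and with equal sums 0.00.

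Over the whole family, the strain ratio was that of other promoters. The median log2 ratio in controls was 0.46 for Zfp and 0.54 for all promoters, and both turned to 0 or below with other scalings (-0.01 and 0.00 with equal sums, -0.05 and -0.04 with equal medians). In DEHP the medians were 0.10 and 0.04.

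Prenatal DEHP was compared with control within each strain. All DEHP libraries were submitted for capture and sequencing apart from all control libraries, with another read length and a higher average depth. In all of the following values DEHP and the submission cannot be told apart. In C57BL/6J, 1 member was higher in every DEHP library, beside 0.249% of all promoters, and 1 was lower, beside 1.42%. In FVB/N, 3 members were higher, beside 0.774%, and 1 was lower, beside 0.859%. Called in opposite directions in the strains were 0 members and 0 of all promoters. With so few calls, nothing is read from the lack of a member called in both strains. The split depended on the scaling. With equal sums, 4 members were higher in C57BL/6J DEHP (Zfp157, Zfp235, Zfp493 and Zfp759, named after their values were seen) and 0 lower, beside 1.02% and 0.129% of all promoters. With equal medians, 1 member was higher in FVB/N DEHP and 2 lower, beside 0.125% and 3.25%.

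Zfp493, a KRAB member by the wider pattern in the cluster on chromosome 13, had 1.6 ± 1.0 normalized reads in C57BL/6J controls and 6.3 ± 1.0 in C57BL/6J DEHP. The log2 ratio of DEHP over control was 1.49, and the deposited values place every DEHP library above 4.37 and every control below 3.53. In FVB/N the groups overlapped, with 2.1 ± 2.2 in controls and 3.1 ± 1.6 in DEHP, a log2 ratio of 0.40. Whether the change differs between the strains was not tested.

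Zfp637 was the member called lower, from 11.8 normalized reads in C57BL/6J controls to 5.6 in DEHP, a log2 ratio of -0.96. The call was lost with equal sums, where the log2 ratio was -0.45. In FVB/N it was low in both groups, with a log2 ratio of -0.21.

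In FVB/N, Zfp707, a KRAB member on chromosome 15, had 2.1 ± 2.5 normalized reads in controls and 10.8 ± 1.2 in DEHP, a log2 ratio of 1.93. Its probe also holds an exon of the pseudogene Eif2s3x-ps1. Its C57BL/6J values were 5.2 ± 2.3 and 7.9 ± 4.3, which overlapped. Zfp846, in a KRAB cluster on chromosome 9, had 1.8 ± 0.9 in FVB/N controls and 5.9 ± 0.8 in DEHP, a log2 ratio of 1.30. In C57BL/6J it had 2.4 ± 1.9 and 4.0 ± 0.8, with overlap. With equal medians the calls of Zfp707 and Zfp846 in FVB/N were lost, at log2 ratios of 1.40 and 0.80. Zfp438 was listed at 0 in FVB/N controls and had 2.6 ± 0.9 normalized reads in DEHP, so no fold is given, and it had 1.2 ± 1.5 and 1.4 ± 1.3 in C57BL/6J.

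Zfp326 had fewer reads in DEHP. It had 24.3 ± 4.7 normalized reads in FVB/N controls and 10 ± 2.5 in DEHP, a log2 ratio of -1.20, which was -1.30 with equal sums and -1.88 with equal medians. In C57BL/6J it had 24.7 ± 10 and 10.5 ± 2.8, a log2 ratio of -1.16, but the SD of the controls left an overlap. Zfp957, the highest member, had a log2 ratio of -1.29 in C57BL/6J against -0.42 in FVB/N, and was called lower in C57BL/6J with equal medians only. Zfp668 had -1.27 and -0.93 with overlapping groups.

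**Figure D4:**
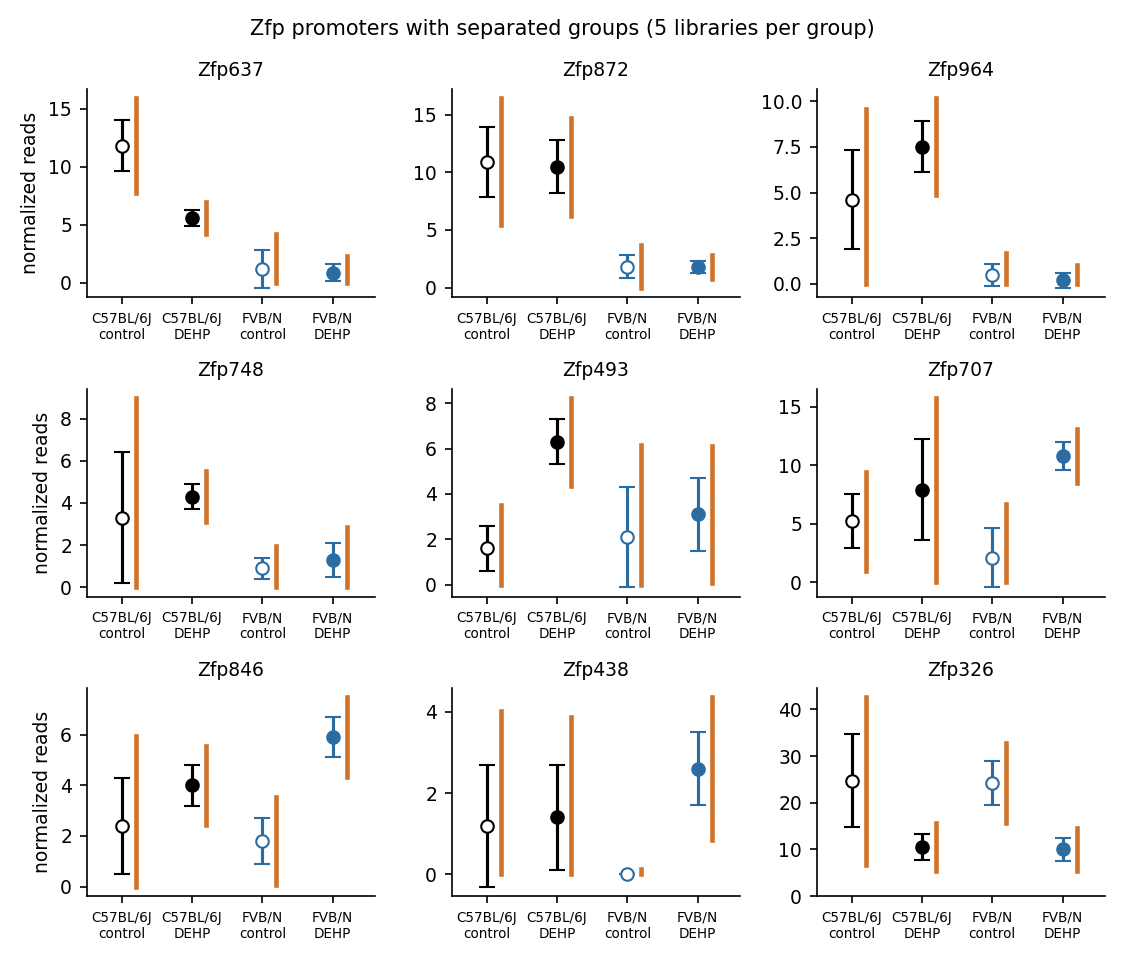
Normalized reads of the 9 called Zfp promoters in the 4 groups (open points control, filled points DEHP, black C57BL/6J, blue FVB/N). Points and black or blue bars are the authors' means and SDs over 5 libraries, and orange bars are the widest range in which single libraries can lie, which for Zfp637 starts at 7.73 in C57BL/6J controls and ends at 4.20 in FVB/N controls.

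As a whole, the family had higher ratios than other promoters in C57BL/6J and nearly the same ratios in FVB/N. The median log2 ratio of DEHP over control in C57BL/6J was 0.18 for Zfp promoters and -0.10 for all promoters as deposited, 0.57 and 0.33 with equal sums, and 0.12 and -0.16 with equal medians. The difference between the medians was 0.29, 0.24 and 0.28. Of the 328 members, 211 (64.3%) lay above the median of all promoters. In FVB/N the medians were 0.44 and 0.35 as deposited, but -0.05 and -0.18 with equal medians, and the difference between Zfp and all promoters lay between 0.09 and 0.12 over the scalings. Above the median of all promoters were 180 members (54.9%). The medians given next are as deposited, and their signs depend on the scaling.

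Level moved with these ratios. Over all promoters, the median log2 ratio in C57BL/6J was 0.22 for promoters under 2 normalized reads, 0.23 from 2 to under 5, -0.18 from 5 to under 10 and -0.78 at 10 or more, and Zfp promoters are mostly low. At the same levels Zfp medians were 0.26 (n = 94), 0.42 (n = 131), -0.26 (n = 76) and -0.67 (n = 27). In FVB/N the Zfp medians were 0.27, 0.68, 0.36 and 0.10, and those of all promoters 0.25, 0.58, 0.50 and -0.05. Within a level, the family thus lay both above and below the other promoters.

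KRAB members had higher median ratios than the others in both strains. By the wider pattern the median log2 ratio of DEHP over control was 0.30 in the KRAB members of C57BL/6J against -0.03 in the others, and 0.56 against 0.25 in FVB/N. By the strict pattern these were 0.37 and 0.09, and 0.70 and 0.30. Of the 179 KRAB members, 128 (71.5%) lay above the median of all promoters in C57BL/6J, as did 76 (53.9%) of the 141 others. The counts in FVB/N were 114 (63.7%) and 61 (43.3%). From 2 to under 5 normalized reads the medians were 0.48 with KRAB (n = 72) and 0.23 without (n = 53) in C57BL/6J. In FVB/N these sets had 0.79 and 0.44. The gap was not present everywhere. From 5 to under 10 normalized reads the FVB/N medians were 0.35 with KRAB (n = 41) and 0.37 without (n = 35), and at 50 to 99 CG sites they were 0.30 (n = 48) and 0.26 (n = 76). CG sites differed between the classes as well, with medians of 38 and 63 in the members with 2 to under 5 reads.

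Members with a high ratio in C57BL/6J tended to have a high ratio in FVB/N. Relative to the median of all promoters, 142 members (43.3%) were above it in both strains and 79 (24.1%) below it in both, against 34.3% each over all promoters. In the single strains, 64.3% of members in C57BL/6J and 54.9% in FVB/N already lay above it. The 43.3% therefore cannot be read as closer agreement of the strains in this family. Across the 328 members, Pearson's r between the log2 ratios of the strains was 0.469, against 0.556 across all promoters. The strains share no library, but they share the submissions and the CG sites of each promoter, and promoters are not independent replicates.

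**Figure D5:**
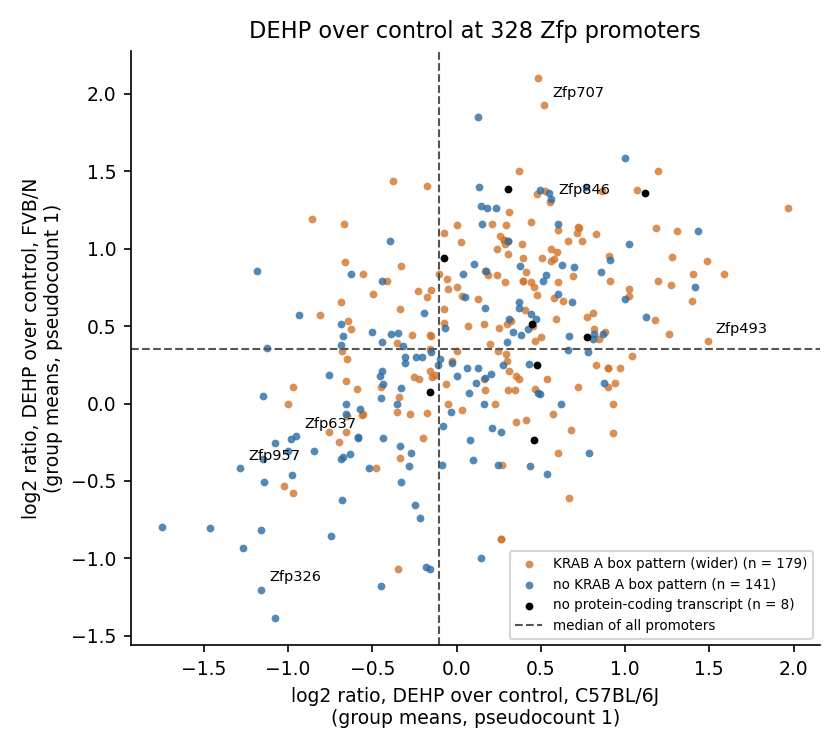
Log2 ratio of DEHP over control (group means, pseudocount 1) in C57BL/6J on the x axis and FVB/N on the y axis for the 328 Zfp promoters, coloured by the wider KRAB pattern, with promoters listed at 0 in a group (such as Zfp438) placed by the pseudocount alone. Dashed lines are the medians of all promoters as deposited, -0.10 and 0.35 (0.33 and 0.29 with equal sums, -0.16 and -0.18 with equal medians), and 142 points lie above both, 79 below both.

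The promoters of the genes that KRAB proteins act through were looked at beside the family. Of 22 genes listed for this silencing route, 20 were in the table (Trim28 and Cbx3 were not analysed here), and 0 of the 20 were called in any of the 4 comparisons, where calls over all promoters run from 0.0267% to 1.42% per direction, so this count says nothing particular about them. Their median level was 4.49 normalized reads (mean of the 4 groups) with a median of 67 CG sites, from 1.07 at Morc3 to 23.9 at Dnmt1, the maintenance DNA methyltransferase. Setdb1, the histone methyltransferase recruited by TRIM28, had 8.7 ± 3.0 and 8.1 ± 1.6 in the C57BL/6J groups without and with DEHP. In the FVB/N groups it had 3.9 ± 2.4 and 10.6 ± 5.1, and the ranges overlapped in both strains. As deposited, the median log2 ratio of DEHP over control of the 20 promoters was -0.10 in C57BL/6J, beside -0.10 over all promoters, and 0.40 for FVB/N, beside 0.35.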

How the data were processed

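MBD-sequencing of sperm DNA from 20 mice (4 groups of 5) was used. Fragments were enriched with the MethylCap kit. The authors aligned reads onto mm10 with Bowtie 0.12.7, removed pairs with several positions, non-concordant pairs and pairs without CpG, counted pairs per promoter probe (2000 bp before to 200 bp after the start), and normalized them with edgeR. The deposited values are signal, the mean and SD of normalized reads of each group with 1 decimal. Values, depth and counting intervals of single libraries are therefore unknown. The paper gives an average depth for each submission, which was higher for the DEHP libraries. A further 9 columns hold the authors' comparisons (fold changes, p-values and FDR) and 6 hold expression values of another study, and none of these was used.

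Groups follow the labels. The table writes FVBNJ for the strain labelled FVB/N. Members and lists were chosen with earlier results of these data known. A difference was called where the means ± 1.79 SD, widened by 0.05 for rounding of mean and SD, did not overlap. The rule assumes that SDs were taken over the 5 libraries on the scale of the means. It was tested on simulated data that meet this assumption, so the assumption itself was not tested. Log2 ratios used a pseudocount of 1. Alternatives were means scaled to equal sums or equal medians over all promoters, a pseudocount of 0.1, a minimum mean of 1 in either group, symbols of Zfp and digits only, 1 member per set of overlapping probes and, added after seeing the data, members with at least 90% unique words. Words of 51 bases were sampled every 20 bases and searched in GRCm38.p6. KRAB A boxes were searched in the longest open reading frames of GENCODE transcripts. Named genes were the called members (up to 5 per comparison and direction), the 5 highest and 5 lowest, those with most and fewest CG sites and most reads per CG site, the extremes of each cluster, and the list of known roles, from which Zfp37, Zfp423 and Zfp91 were not analysed here. Python 3.11.15, numpy 2.4.6, pandas 2.3.3, numba 0.67.0 and matplotlib 3.10.9 were used.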

Additional observations from a re-analysis of the deposited data

How the results depend on the processing

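Scaling was the choice that changed counts. With equal sums, the members called between DEHP and control in C57BL/6J went from 2 to 4, and those called between the strains in controls went from 2 to 1, as they did with equal medians. The calls between DEHP and control in FVB/N went from 4 to 5 with equal sums and to 3 with equal medians. Equal medians also changed those in C57BL/6J from 2 to 3, and those between the strains in DEHP from 4 to 3. Zfp319, named after its values were seen, was called lower in FVB/N DEHP with both scalings. Calls lost were those of Zfp637 (DEHP in C57BL/6J, equal sums), Zfp872 (strains in controls, both scalings), and Zfp707, Zfp846 (DEHP in FVB/N) and Zfp748 (strains in DEHP) with equal medians. The low-value filter, the narrower symbol rule, 1 member per overlapping set and the 90% limit on unique words left every count of calls as it was. Over all alternatives, the family's median log2 ratio of DEHP over control lay between 0.12 and 0.57 in C57BL/6J but between -0.05 and 0.61 in FVB/N, and that of C57BL/6J over FVB/N between -0.05 and 0.64 in controls and between 0.01 and 0.12 in DEHP. The negative values came with the scalings. No paired analysis was possible because only group means and SDs were used. For the same reason the fits without each replicate in turn were not run. The precision is limited by 5 libraries a group, each of unknown depth, means of a few reads, and SDs given to 1 decimal. Since treatment coincides with submission, no within-batch value of DEHP against control can be had.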
